A study of Mus musculus with 2 samples.

Results

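The immunoglobulin constant genes encode the part of an antibody that sets its class and its light-chain type. The 10 genes described here were named in a list, Ighm, Ighd, Ighg1, Ighg2b, Ighg2c, Ighg3, Igha, Igkc, Iglc1 and Iglc2, and were 10 of the 32285 genes in each count matrix. All 10 were found by their symbol. Iglc3 and Ighe, which complete the light-chain and heavy-chain sets, were counted beside them and are named where they enter.

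The cells were live CD45+ immune cells sorted from liver tumors of male C57BL/6J mice aged 6 to 8 weeks at the outset. Hepatocellular carcinoma (HCC) was induced by hydrodynamic injection of plasmids that overexpressed MYC and carried a guide against Trp53 with the sleeping beauty transposase. Lenvatinib, a multikinase inhibitor, was given at 30 mg/kg from 12 days after injection for 25 days to all mice. The lenvatinib group then stayed on lenvatinib, and the combo group received lenvatinib at 30 mg/kg with palbociclib, a CDK4/6 inhibitor, at 100 mg/kg. There was 1 library per group, the number of mice behind each library is not given in the sources used here, and the tumors model resistance without a group that was never treated. Treatment and library therefore cannot be told apart, no test between groups was possible, and every interval below is an exact 95% interval that covers counting error only.

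The lenvatinib library held 14509 barcodes and 98107503 UMIs (unique molecular identifiers, each standing for 1 captured molecule). The combo library held 11989 barcodes and 93583402 UMIs. Cells with at most 6000 genes and at most 25% mitochondrial UMIs numbered 14201 and 11613, with a median of 5541 and 5754 UMIs. The libraries shared 49 barcodes, and 2 lenvatinib and 3 combo cells of the B lineage carried one of these. Levels are given as CPM, the UMIs of a gene per 1000000 UMIs of all genes summed over a class of cells. The 3′ chemistry tags each transcript at 1 end, so these levels were not divided by gene length.

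A B cell makes an antibody from a heavy chain and a light chain. The rearranged variable segment is first joined to Ighm and, by alternative splicing, to Ighd. After class switching it is joined to a gene further along the locus, an Ighg gene for IgG, Ighe for IgE or Igha for IgA. The light chain is kappa, from Igkc, or lambda, from an Iglc gene. In a B cell the antibody sits in the membrane as a receptor, whereas a plasma cell ends the heavy-chain transcript early and secretes the protein in bulk, with Jchain joining the subunits of IgM and IgA.

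The heavy-chain genes lie on the minus strand of mouse chromosome 12 (mm10). Ighm lies at chr12:113418558-113422730, Ighd at chr12:113406604-113416324, Ighg3 at chr12:113356224-113361232, Ighg1 at chr12:113325240-113330523, Ighg2b at chr12:113302965-113307933, Ighg2c at chr12:113285325-113288932 and Igha at chr12:113254830-113260236. Igkc lies at chr6:70726435-70726966 on the plus strand. On the minus strand of chromosome 16, Iglc1 lies at chr16:19061618-19062071, Iglc3 at chr16:19065230-19065681 and Iglc2 at chr16:19198396-19200351. All these gene identifiers matched GENCODE.

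The last 59 coding bases of the secreted form are shown for 4 heavy-chain genes that led antibody-secreting cells, since they separate the classes that bind Jchain from IgG. Capitals mark the cysteine codon of the IgM and IgA tailpiece. All 59 bases are used only by the secreted transcript in Ighm and Igha, against 5 in Ighg2b and Ighg2c, whose other bases also stand in the membrane form. They lie in an exon, at chr12:113420870-113420928 for Ighm, chr12:113258771-113258829 for Igha, chr12:113306392-113306450 for Ighg2b and chr12:113287392-113287450 for Ighg2c, and are written 5′ to 3′ on the minus strand.
Ighm: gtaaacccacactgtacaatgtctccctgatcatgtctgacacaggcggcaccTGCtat
Igha: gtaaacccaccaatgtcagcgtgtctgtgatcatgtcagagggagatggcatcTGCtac
Ighg2b: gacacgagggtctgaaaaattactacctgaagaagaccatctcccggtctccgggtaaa
Ighg2c: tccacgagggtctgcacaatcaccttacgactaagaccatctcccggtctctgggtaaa

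The first 120 bases of the 3 lambda constant exons are shown because the lambda gene that led differed between cell types. The lambda call itself used their sum. Capitals mark the bases that differ from Iglc3, 7 in Iglc2 and 27 in Iglc1. The stretches lie at chr16:19065562-19065681 for Iglc3, chr16:19198733-19198852 for Iglc2 and chr16:19061952-19062071 for Iglc1, on the minus strand.
Iglc3: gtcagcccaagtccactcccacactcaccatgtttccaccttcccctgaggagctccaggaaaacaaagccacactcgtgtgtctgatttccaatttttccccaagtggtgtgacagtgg
Iglc2: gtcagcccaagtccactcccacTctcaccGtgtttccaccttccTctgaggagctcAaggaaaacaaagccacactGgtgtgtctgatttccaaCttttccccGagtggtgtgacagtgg
Iglc1: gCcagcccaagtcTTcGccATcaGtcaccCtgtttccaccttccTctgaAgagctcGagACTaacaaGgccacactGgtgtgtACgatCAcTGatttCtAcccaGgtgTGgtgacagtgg

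Over the coding bases, Iglc2 and Iglc3 were 96.2% identical, whereas Iglc1 was 73.4% identical to Iglc2 and 74.2% to Iglc3. Ighg2b and Ighg2c were 85.6% identical. How the counting divided UMIs between Iglc2 and Iglc3 was not tested. In antibody-secreting cells Ighg2b and Ighg2c were counted apart, since the 9 combo cells of both gates called Ighg2b held a median of 99.8% of their heavy-chain UMIs in that gene.

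B cells were taken as cells with at least 2 Cd79a and at least 1 Ms4a1 UMIs, and plasma cells as cells with at least 5 Jchain and at least 2 Mzb1 UMIs. Cells that passed both gates were kept apart. The B gate held 513 cells under lenvatinib (3.61% of cells, interval 3.31 to 3.93%) and 553 under combo (4.76%, interval 4.38 to 5.17%). The plasma gate held 68 cells (0.479%) and 51 cells (0.439%). A further 6 lenvatinib cells (0.0423%) and 27 combo cells (0.232%) passed both gates. Cells of the B gate had a median of 3509 and 3685 UMIs, against 17979.5 and 31664 in the plasma gate. The gate genes fitted the names, since Sdc1, a plasma cell surface proteoglycan, had a UMI in 73.5% and 78.4% of plasma-gate cells but in 1.95% and 0.542% of B-gate cells. Ptprc, the gene of CD45, had a UMI in 92.6% and 83.5% of B-gate cells and in 86.8% and 82.4% of plasma-gate cells.

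The constant genes took 1.02% of all UMIs in the B gate of each library. In the plasma gate they took 34.8% under lenvatinib and 48.9% under combo. The plasma-gate cells alone, which were under 1% of cells in each library, held 460757 of 635388 constant-gene UMIs under lenvatinib and 731170 of 1164054 under combo.

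**Figure D1:**
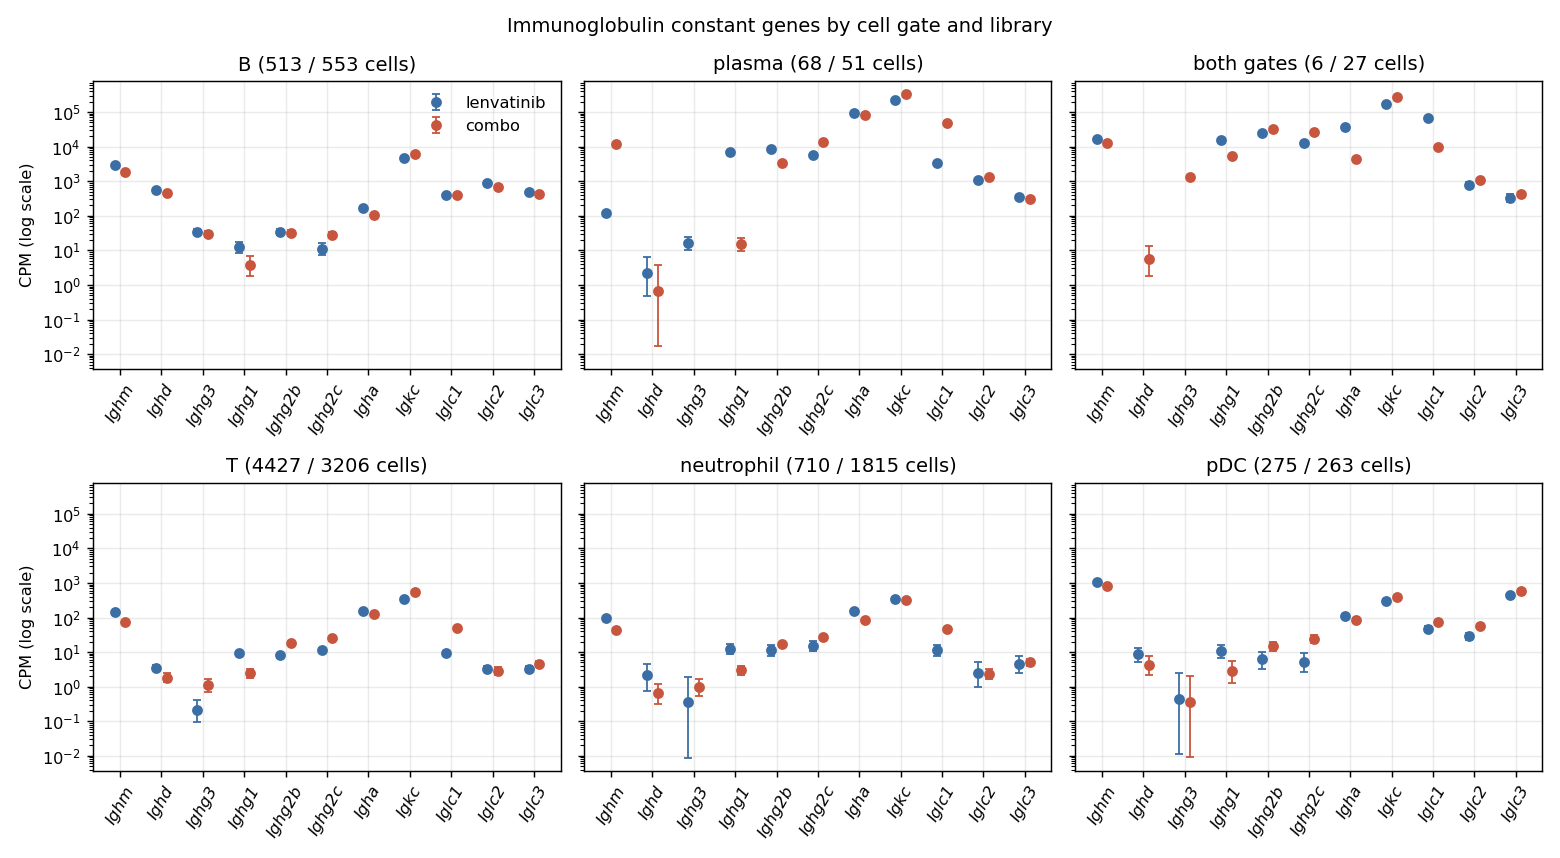
CPM of 11 constant genes (log axis) in 6 cell gates, with 1 point per library and exact 95% Poisson bars; genes at 0 UMIs have no point. Igkc was the highest gene in the plasma gate at 227541 and 329904 CPM, and Ighm was the highest in plasmacytoid dendritic cells at 1030 and 802 CPM.

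In B cells Ighm and Igkc led the heavy and light chains. Ighm stood at 2923 CPM (interval 2856 to 2991) under lenvatinib and 1908 CPM (1859 to 1959) under combo, with a median of 11 and 9 UMIs per cell. Ighd stood at 564 and 458 CPM, with a median of 2 UMIs per cell in both libraries. Ighm and Ighd UMIs were found together in 406 of 513 lenvatinib cells (79.1%) and 436 of 553 combo cells (78.8%). At an equal 2000 UMIs per cell these shares were 63.1% and 59.2%. The ratio of summed Ighm to Ighd UMIs was 5.18 and 4.17. Co-expression of IgM and IgD is the known state of mature naive B cells, and most B-gate cells of both libraries held both transcripts.

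The switched heavy chains were rare in B cells. Igha stood at 171 and 103 CPM, Ighg2b at 34.3 and 31.3 CPM, Ighg3 at 34.7 and 30.3 CPM, Ighg2c at 11.0 and 28.3 CPM and Ighg1 at 12.6 and 3.75 CPM. Ighe had no UMI in the B gate of either library. The Igha level in B cells was near that of T cells, 154 and 125 CPM, which do not make antibody. Without the 10 lenvatinib and 2 combo T cells that had at least 1% of their UMIs in constant genes, the T cell levels were 116 and 89.2 CPM, below the B gate in both libraries. No cells were taken out of the B gate for this. Its cells were also shallower, with medians of 3509 and 3685 UMIs against 7135 and 6134 in T cells, so these CPM do not compare Igha UMIs per cell. How much of the Igha in the B gate was free RNA in the droplets was not tested. A cell was given an isotype where 1 heavy chain, with Ighm and Ighd counted as one, had at least 3 UMIs and at least 70% of the heavy-chain UMIs. By this call 485 of 495 lenvatinib B cells and 516 of 525 combo B cells were IgM or IgD. Switched cells were 10 of 495 (2.02%, interval 0.973 to 3.68%) and 9 of 525 (1.71%, interval 0.787 to 3.23%). The combo share was not stable, at 5.43% with the cells of both gates kept and 0.643% with stricter calls, where lenvatinib had 2.99% and 1.40%.

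The switched B cells were spread over the classes. Under lenvatinib 3 were Igha, 3 Ighg2b, 2 Ighg1 and 2 Ighg3, and under combo 3 were Ighg2b, 3 Ighg3, 2 Igha and 1 Ighg2c. Of the 10 lenvatinib cells 7 had no Ighm UMI, and of the 9 combo cells 7 had none. The most abundant was a lenvatinib Ighg3 cell with 61 switched UMIs and 4 Ighm UMIs. A single combo Ighg2b cell was called a doublet, at 20207 UMIs.

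**Figure D2:**
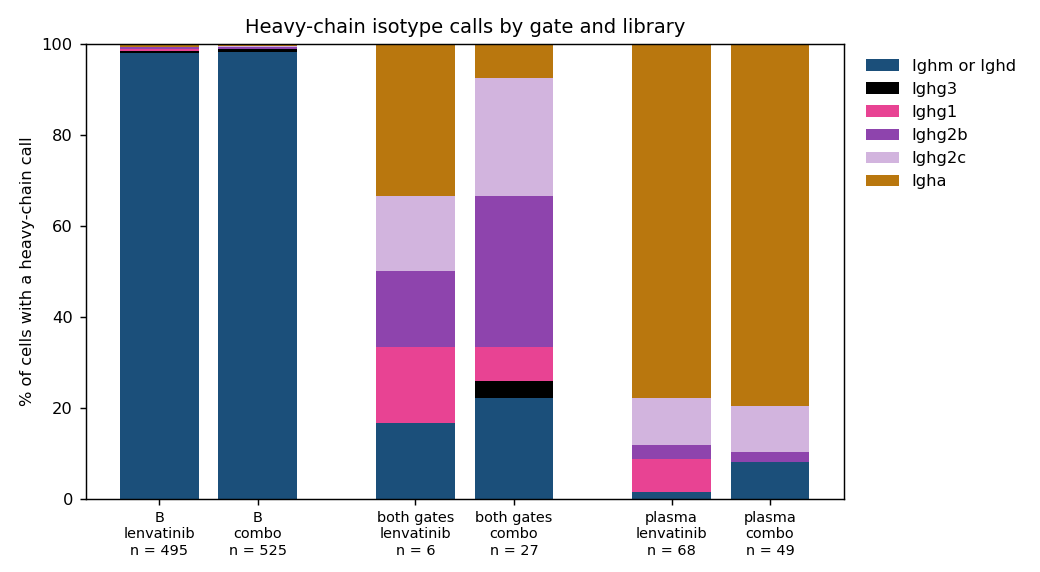
Share of cells with each heavy-chain call (stacked, % of cells with a call) in 3 gates of the 2 libraries, with the number of called cells under each bar. B-gate bars are almost wholly IgM or IgD, plasma-gate bars are 77.9% and 79.6% Igha, and the cells of both gates carry mostly IgG or IgM under combo.

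Kappa was the main light chain of B cells. Igkc stood at 4698 CPM (interval 4613 to 4785) and 6121 CPM (6032 to 6211), with a median of 20 and 29 UMIs per cell. Iglc2 stood at 891 and 702 CPM, Iglc3 at 474 and 429 CPM and Iglc1 at 390 and 412 CPM. By the same call on the light chains, with the 3 lambda genes summed, 347 of 373 lenvatinib and 456 of 488 combo B cells were kappa. Lambda cells were 26 (6.97%, interval 4.60 to 10.0%) and 32 (6.56%, interval 4.53 to 9.13%). With stricter calls the lambda shares were 13.5% and 11.7%, above these intervals.

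The kappa cells also carried lambda UMIs, and more of them had Iglc2 or Iglc3 than Iglc1. Iglc2 had a UMI in 79.3% and 84.6% of kappa B cells and Iglc3 in 72.0% and 79.2%, against 32.9% and 46.1% for Iglc1. In T cells Iglc2 had a UMI in 2.35% and 1.84% of cells and Iglc3 in 1.33% and 1.22%, at higher median depth. The source of the lambda UMIs in kappa cells was not tested. The lambda B cells differed from this pattern, with Iglc1 leading 12 of 26 under lenvatinib and 22 of 32 under combo. Iglc2 led 8 and 8 of them and Iglc3 led 6 and 2.

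No light-chain call was reached in 140 lenvatinib B cells (27.3%) and 65 combo B cells (11.8%). These were not shallow, with medians of 16 and 17 kappa UMIs and 11 and 11 lambda UMIs. Called doublets were 9.29% and 3.08% of them, against 13.0% and 9.87% of kappa cells. Lambda UMIs were also common in kappa cells, and the threshold of 70% fell inside the main cloud of cells rather than in a gap. What left these cells without a call was not tested.

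**Figure D3:**
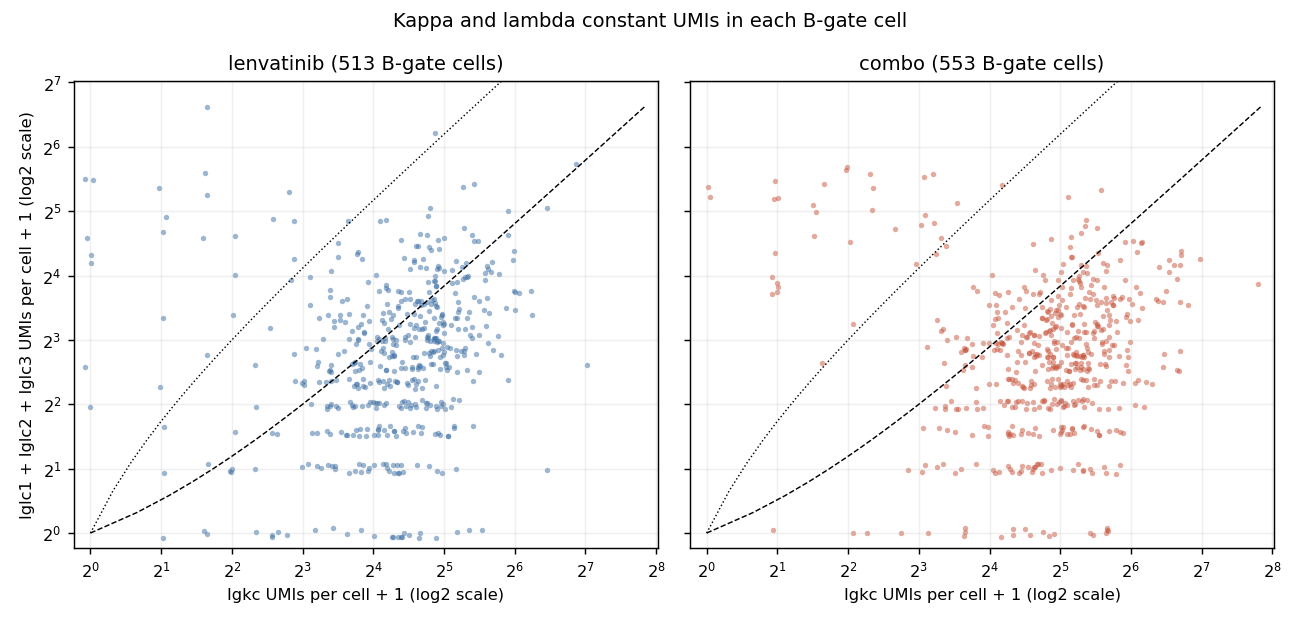
Igkc UMIs (x) against summed lambda UMIs (y) in each B-gate cell, both plus 1 on log2 axes with a small random shift; below the dashed line a cell is 70% kappa or more and above the dotted line 70% lambda or more. The main cloud lies across the dashed line in the lenvatinib library and mostly below it under combo, and the lambda cells, 26 and 32, stand at the upper left.

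Of the 10 genes all had at least 10 UMIs in each library in B cells, so all could be compared. Only Ighg2c was at least 2-fold higher under combo, at 2.57 times (interval 1.41 to 4.83), while 2.01% of 9192 genes were higher by this measure. Only Ighg1 was at least 2-fold lower, at 0.296 times (0.104 to 0.780), while 6.22% of genes were lower. Without called doublets Ighg1 no longer had 10 UMIs in each library and no member was 2-fold lower, and with cells of both gates kept in the B gate Ighg1 turned to 1.29 times. The median ratio was 0.843 over the members and 0.835 over all genes compared. Ighm was 0.653 times and Igkc 1.30 times its lenvatinib level. With the cells of both gates kept, Ighm was 1.15 times. In that wider gate 4 members rather than 1 were at least 2-fold higher, and Igha (0.451 times) was lower. The higher members were Ighg3 (10.2 times), Ighg2c (7.51 times), Ighg2b (4.78 times) and Igkc (4.53 times). For Ighg3, 1 combo cell held 1134 of the 1173 UMIs of the cells of both gates. The shares of all genes given above belong to the B gate without these cells and are no measure for the wider gate. Ighg1 rested on 31 and 11 UMIs and Ighg2c on 27 and 83, and both had the same direction in T cells, as given below.

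Transcripts of neutrophils moved with the library in the B gate. The summed level of 7 neutrophil genes was 414 CPM under lenvatinib and 32683 CPM under combo, all 7 were at least 2-fold higher, and the most abundant, S100a8, had a UMI in 42.1% and 94.4% of B-gate cells. The erythroid genes summed to 1742 and 6.13 CPM, 5 NK cell genes to 829 and 257 CPM and 6 T cell genes to 482 and 531 CPM. Called doublets were 11.9% and 8.50% of B-gate cells. The part of these in the levels above was not tested.

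The genes around the constant regions in B cells mostly stayed within 2-fold. All 14 genes of the B-cell receptor and its co-receptors were compared and none was 2-fold apart, with a median ratio of 0.827 against 0.835 over all genes. Cd79a, the signalling partner of membrane antibody, stood at 1568 and 1707 CPM and Cr2, a complement receptor, at 127 and 75.3 CPM. None of 6 follicular genes was 2-fold apart, among them Fcer2a, the low-affinity IgE receptor, at 214 and 167 CPM. Of 9 marginal zone and B1 genes 8 were compared and 2 were higher, Cd9 at 34.3 and 97.8 CPM and Zbtb32 at 5.30 and 14.0 CPM. Of 8 germinal center and class switch genes 5 were compared and none was 2-fold apart. Of 5 memory genes only Cd80, a costimulatory ligand, was higher, at 4.49 and 12.9 CPM. Of 11 immunoglobulin receptor and transport genes 8 were compared and Fcgr3, an IgG receptor that myeloid cells also express, was higher at 8.16 and 29.6 CPM. These counts stand beside 2.01% of all genes higher and 6.22% lower in this gate. The neutrophil genes given above and 6 monocyte or macrophage genes, at 354 and 2113 CPM in sum, were also higher in the combo B gate, and their part in these 4 genes was not tested. Fcmr, the IgM receptor, stood at 405 and 472 CPM.

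A few lenvatinib B cells carried transcripts of precursor B cells. In 6 cells the genes Igll1 and Vpreb1, which form the surrogate light chain, and Rag1, a recombinase, had at least 2 UMIs together, with 52, 55 and 15 UMIs in total over the B gate. Those 6 cells had a median of 4.5 Igkc UMIs, and 5 of them were called IgM or IgD. No combo B cell reached this, and the 3 genes had 0 UMIs there.

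In plasma cells IgA led the heavy chains in both libraries. Igha stood at 94392 CPM (interval 93869 to 94916) under lenvatinib and 81727 CPM (81270 to 82187) under combo, with a median of 1255 and 2873 UMIs per cell. By the isotype call 53 of 68 lenvatinib cells were Igha (77.9%, interval 66.2 to 87.1%) and 39 of 49 combo cells (79.6%, interval 65.7 to 89.8%). With cells of at least 10% constant-gene UMIs taken in place of the gate, the shares were 77.7% (67.9 to 85.6%) and 54.9% (43.5 to 65.9%). With the cells of both gates kept they were 74.3% (62.8 to 83.8%) and 53.9% (42.1 to 65.5%). These intervals cover counting error only, and with 1 library per group they are no test between treatments. Ighg2c was called in 7 and 5 cells, Ighg1 in 5 and 0, Ighg2b in 2 and 1, and IgM or IgD in 1 and 4. No cell was called Ighg3 and 2 combo cells had no call.

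Most plasma cells held almost all their heavy-chain UMIs in 1 gene. The leading gene held a median of 99.7% of the heavy-chain UMIs of a cell under lenvatinib and 99.9% under combo. In lenvatinib Igha cells it held 82.9% at the lowest. The 2 combo cells with no call held 67 Igha and 31 Ighg2b UMIs, and 120 Igha and 59 Ighg2b UMIs, and the constant genes were 2.01% and 1.06% of their UMIs. The single lenvatinib IgM or IgD cell had 24 heavy-chain UMIs, 0.426% constant UMIs and no light-chain call, so it met the gate at a constant-gene level below that of the lenvatinib B gate as a whole. A lenvatinib cell called Igha, with 34 Igha UMIs and 0.771% constant UMIs, also lay below that level. The 4 combo IgM cells had 4581, 5209, 2846 and 4672 Ighm UMIs and no Ighd UMI, and 44.7% to 60.4% of their UMIs were constant-gene UMIs.

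**Figure D4:**
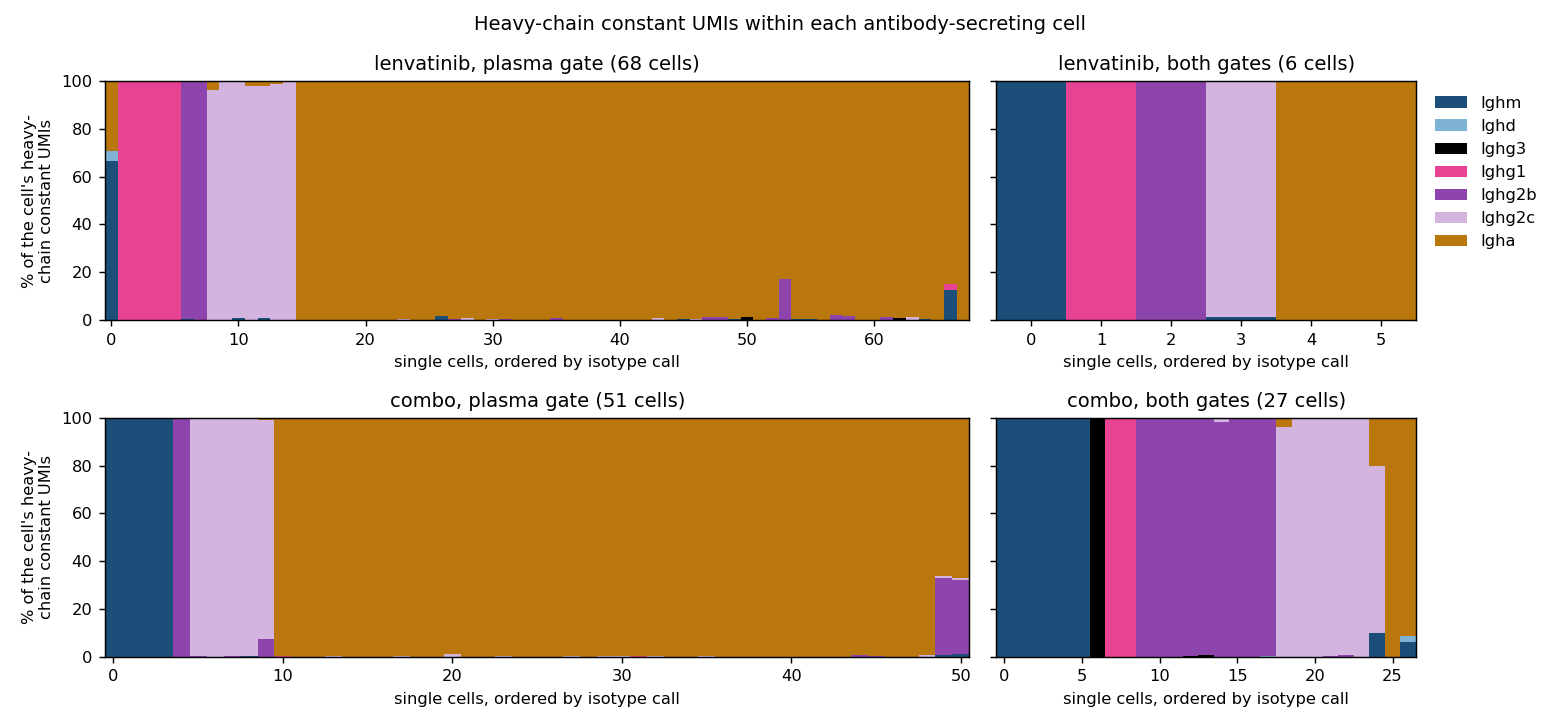
Each bar is 1 cell of the plasma gate (left) or of both gates (right), divided by the share (%) of its heavy-chain constant UMIs from each gene, for lenvatinib (top) and combo (bottom). Most bars are nearly 1 color, and Igha was called in 53 of 68 and 39 of 51 bars of the plasma gate. In these called bars Igha takes 82.9% or more under lenvatinib and 98.9% or more under combo. Igha is also the largest part of the 2 combo bars with no call.

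Kappa was also the main light chain of plasma cells. Igkc stood at 227541 and 329904 CPM, with a median of 3077 and 9591 UMIs per cell. Lambda cells were 1 of 67 under lenvatinib and 4 of 51 under combo, and Iglc1 led all of them. The 4 combo lambda cells had 12460, 16710, 18418 and 21971 Iglc1 UMIs, of which the first 3 were Igha and the last was Ighg2c. They held 69559 of the 70674 Iglc1 UMIs of the combo plasma gate. Iglc1 stood at 3321 and 47293 CPM, and this contrast of libraries came from these 4 cells.

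Of the 10 genes 8 had at least 10 UMIs in each library in plasma cells. Ighm (96.7 times), Iglc1 (14.2 times) and Ighg2c (2.47 times) were at least 2-fold higher under combo, while 0.978% of 5522 genes were. Ighg1 (0.002 times) and Ighg2b (0.394 times) were at least 2-fold lower, while 25.0% of genes were. With CPM taken over the UMIs outside immunoglobulin genes Ighg2b was 0.506 times, past the call no longer. With cells of both gates kept, Ighg2b turned to 1.39 times, and Ighm was 6.17 times, Iglc1 3.27 times, Ighg2c 2.90 times and Ighg1 0.258 times. The median ratio was 0.640 over all genes and 1.36 over the members. Outside immunoglobulin genes the median over all genes was 0.823, and Igha, at 0.866 times on all UMIs, was 1.11 times. On that scale 1.9% of all genes were at least 2-fold higher and 8.86% at least 2-fold lower. Few cells stood behind each contrast, with 1 and 4 IgM or IgD cells, 5 and 0 Ighg1 cells, 2 and 1 Ighg2b cells and 7 and 5 Ighg2c cells. Of the Ighg2c UMIs, 2 lenvatinib cells held 6778 of 7360 and 4 combo cells held 20214 of 20541. Ighg3 was left out for having 22 and 0 UMIs, and Ighd for 3 and 1. A floor in each library leaves out genes that fell to near 0, and with at least 20 UMIs over both libraries instead, 3 members were lower, Ighg3 among them, beside 31.3% of 6486 genes.

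The genes of the secretory program did not move as 1 group. Of 11 plasma cell genes none was 2-fold higher and 2 were lower, Irf4, a transcription factor of plasma cell fate, at 174 and 83.6 CPM and Fkbp11, a prolyl isomerase, at 281 and 115 CPM, against 25.0% of all genes lower in this gate. The median ratio of the list was 0.836, above the 0.640 of all genes. Jchain stood at 44606 and 62862 CPM and Xbp1, a driver of secretory capacity, at 1318 and 1047 CPM. Of 10 antibody secretion genes Hsp90b1, a chaperone of the endoplasmic reticulum, was lower at 3356 and 1656 CPM, and the median of that list was 0.731. Outside immunoglobulin genes Irf4 was 0.619 times, Fkbp11 0.525 times and Hsp90b1 0.634 times, so none of these 3 kept the call. The share of all genes lower on that scale was 8.86%. The cycling gene Mki67 had a UMI in 48.5% of lenvatinib cells (interval 36.2 to 61.0%) and 21.6% of combo cells (11.3 to 35.3%), although the combo cells were deeper. In this gate the summed neutrophil genes were 2118 and 10979 CPM and the monocyte or macrophage genes 1014 and 1878 CPM. The plasmacytoid dendritic genes were 961 and 397 CPM, with 3 of 4 compared at least 2-fold lower, the T cell genes 232 and 126 CPM and the NK cell genes 172 and 58.9 CPM. Their part was not tested.

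Variable genes gave a further view of the plasma cells. Ighv1-81 was the most abundant heavy-chain variable gene of the plasma gate in both libraries, with 485 UMIs in 18 cells and 496 UMIs in 15 cells. It led 16 of 57 lenvatinib cells and 12 of 47 combo cells that had at least 3 heavy-chain variable UMIs, and 15 and 12 of these were Igha. In each library 26 different variable genes led at least 1 cell. The most abundant kappa variable gene was Igkv1-110 under lenvatinib, at 787 UMIs in 14 cells, and Igkv1-117 under combo, at 794 UMIs in 12 cells. A shared variable gene in 3′ counts does not show a shared clone.

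Under combo the cells that passed both gates had another isotype make-up than the plasma gate. Of these 9 of 27 cells were Ighg2b, 7 Ighg2c, 6 IgM or IgD, 2 Ighg1, 2 Igha and 1 Ighg3. Igha was thus 7.41% of them (interval 0.910 to 24.3%), against 79.6% (65.7 to 89.8%) in the plasma gate of the same library. Under lenvatinib the 6 cells were 2 Igha and 1 each of Ighg1, Ighg2b, Ighg2c and IgM or IgD, and their Igha share (33.3%, interval 4.33 to 77.7%) overlapped that of the plasma gate. Constant genes took 34.5% and 37.3% of the UMIs of the cells of both gates, at medians of 27409.5 and 31023 UMIs per cell. The combo cells held 326206 of the 1164054 constant-gene UMIs of the library, and the lenvatinib cells 56549 of 635388. Mki67 had a UMI in 66.7% and 63.0% of them, but stood at 670 and 134 CPM. H2-Aa, a class II antigen presentation gene, had a UMI in 83.3% and 88.9%. None of them was called a doublet.

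Constant-gene UMIs were found in nearly all cell types at a low level. T cells were taken as cells with at least 2 Cd3e UMIs and no Csf3r UMI, and neutrophils as cells with at least 2 Csf3r UMIs and no Cd3e UMI, which gave 4427 and 3206 T cells and 710 and 1815 neutrophils. Constant genes took 0.0692% and 0.0853% of UMIs in T cells and 0.0658% and 0.0557% in neutrophils. Igkc had 2.92 and 4.01 UMIs per T cell and 1.39 and 2.73 UMIs per neutrophil. It had a UMI in 80.7% and 88.0% of T cells and in 64.6% and 85.9% of neutrophils. At an equal 2000 UMIs per cell these shares were 40.4% and 52.4% of T cells and 48.0% and 51.6% of neutrophils. The neutrophils of the combo library had a median of 5680 UMIs against 2752.5. How much of the wider gap without thinning came from depth was not tested.

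A single combo T-gate cell had 4069 Igkc UMIs and held 31.6% of the Igkc UMIs of all combo T cells. Without the 10 lenvatinib and 2 combo T cells that had at least 1% of their UMIs in constant genes, Igkc stood at 251 and 373 CPM, against 347 and 547 CPM with them. The median was 2 UMIs per T cell in both libraries. In neutrophils Igkc stood at 347 and 328 CPM.

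The make-up of the low-level UMIs differed between the libraries. Iglc1 was 1.36% of the constant-gene UMIs of lenvatinib T cells and 5.90% of those of combo T cells, 1.71% and 8.24% in neutrophils, and 2.78% and 7.27% over all cells. Igha was 22.3% and 14.6% in T cells, 23.9% and 15.1% in neutrophils, and 23.6% and 11.8% over all cells. Ighm was 20.5% and 8.75% in T cells and 14.3% and 7.61% in neutrophils, but 4.21% and 3.73% over all cells.

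In T cells 9 members had at least 10 UMIs in each library. Iglc1 (5.36 times), Ighg2c (2.18 times) and Ighg2b (2.14 times) were at least 2-fold higher under combo, beside 3.21% of 13102 genes. Ighg1 (0.256 times) was at least 2-fold lower, beside 2.95% of genes. With the floor of 20 UMIs over both libraries, Ighg3 with 8 and 26 UMIs was a further higher member. In neutrophils 7 members were compared, and Iglc1 (4.08 times) was higher, beside 1.36% of 9430 genes. Ighm (0.450 times) and Ighg1 (0.247 times) were lower, beside 13.7% of genes. The median ratio of the members was 0.851 in T cells and 0.944 in neutrophils, against 0.919 and 0.769 over all genes. In the plasma gate Iglc1 (14.2 times), Ighg2c (2.47 times) and Ighg1 (0.002 times) lay on the same side as in T cells, whereas Ighm (96.7 times there, 0.527 times in T cells) and Ighg2b (0.394 times there, 2.14 times in T cells) lay on opposite sides. For Ighg2b this rests on setting the cells of both gates apart, since with them the plasma gate was at 1.39 times, and over all cells Ighg2b was 2.24 times. The T cells and neutrophils of a library come from the same library and are not separate replicates. How much of their constant-gene UMIs was free RNA was not tested.

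**Figure D5:**
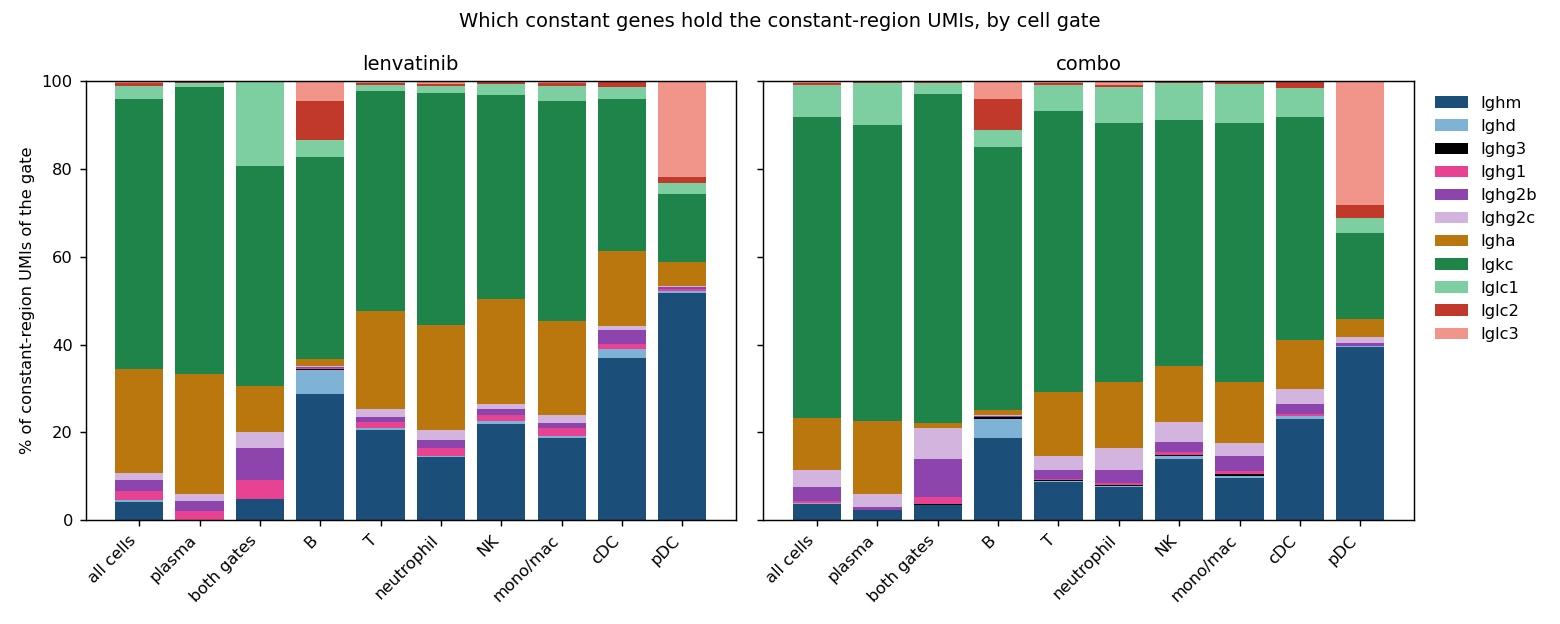
Share (%) of the constant-region UMIs of each cell gate that came from each of 11 genes, with lenvatinib at left and combo at right. Iglc1 takes 7.27% over all combo cells against 2.78% over all lenvatinib cells, and plasmacytoid dendritic cells stand apart through Ighm and Iglc3.

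Plasmacytoid dendritic cells, taken by at least 2 Siglech UMIs, did not follow that make-up. Constant genes took 0.199% and 0.204% of their UMIs, about as much in each library and more than in T cells. Ighm stood at 1030 CPM (interval 989 to 1072) and 802 CPM (769 to 836), with a UMI in 94.9% and 98.5% of cells, and at 2000 UMIs per cell in 83.6% and 78.1%. The same thinned share in T cells was 21.0% and 11.6%. Iglc3 stood at 435 and 577 CPM, with a UMI in 57.8% and 74.1% of cells, while in T cells it stood at 3.24 and 4.43 CPM. Iglc2 was lower, at 28.8 and 56.9 CPM, and Ighd stood at 8.73 and 4.32 CPM. Of the B-lineage genes, Ms4a1 had a UMI in 0.364% and 1.14% of these cells and Cd79a in 2.55% and 6.46%, while Cd79b had one in 23.6% and 34.2% and Mzb1 in 50.2% and 50.6%.

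Across 8 cell classes, with the cells of both gates left out, the order of the levels separated the genes. Igkc, Igha, Ighg1, Ighg2b, Ighg2c and Iglc1 were highest in plasma cells in both libraries. The combo Ighg1 level in plasma cells was 15.4 CPM, from 23 UMIs and no cell called Ighg1. Ighd and Ighg3 were highest in B cells in both. The cells of both gates stood above the plasma gate for Ighg1, at 15238 against 6895 CPM under lenvatinib and 5446 against 15.4 CPM under combo. Ighg2b stood at 24618 against 8440 and 32761 against 3322 CPM, and Ighg2c at 12672 against 5554 and 26269 against 13746 CPM. Iglc1 was higher in them under lenvatinib (65833 against 3321 CPM) but lower under combo (9536 against 47293 CPM). Igkc, Igha and Iglc2 were lower in them in both libraries. Their Ighm level, 16573 and 12489 CPM, was above all 8 classes. Under lenvatinib 1 cell held 2689 of their 2719 Ighm UMIs and 10635 of their 10801 Iglc1 UMIs. Single lenvatinib cells likewise held 2499 of 2500 Ighg1, 4037 of 4039 Ighg2b and 2079 of 2079 Ighg2c UMIs. Ighg3 stood above the B gate under combo (1342 against 30.3 CPM), with 0 UMIs under lenvatinib. In it 1 combo cell held 1134 of the 1173 Ighg3 UMIs. Ighm was highest in B cells under lenvatinib and in plasma cells under combo, where 4 cells set it, with plasmacytoid dendritic cells next after B cells. Iglc3 was close in B cells and plasmacytoid dendritic cells under lenvatinib, at 474 and 435 CPM with overlapping intervals. Under combo it was highest in plasmacytoid dendritic cells, at 577 CPM against 429 in B cells. Iglc2 was also highest in plasma cells in both libraries. It was close in plasma and B cells under lenvatinib, at 1071 and 891 CPM, without overlap of the intervals. Under combo it stood at 1358 CPM in plasma cells against 702 in B cells. The plasma cells called lambda held 2 of the 1419 lenvatinib and 124 of the 2029 combo Iglc2 UMIs of their gate. Iglc2 led none of these cells, so its level in plasma cells is no measure of lambda use.

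The genes most like each member in level were sought over 16 points, the 8 classes in 2 libraries, as Pearson correlations over 13635 genes. Immunoglobulin genes and the genes that set the gates were left out of this ranking, so the genes named are the closest outside these. These points share libraries and depth, and the values are descriptive. Tnfrsf13c, the receptor for the survival factor BAFF, was most like Ighm (r = 0.83) and Klhl14 was most like Ighd (r = 0.96). Nuggc was most like Igha (r = 0.99) and Eaf2 was most like Igkc (r = 0.96). Pycr1, an enzyme of proline synthesis, was most like Ighg2b (r = 0.97) and Prg2 was most like Ighg2c (r = 0.99).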

How the data were processed

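Sorted CD45+ cells were profiled by the 10x Chromium 3′ v3 method, with 1 library per treatment. The deposited matrices hold UMI counts per gene and cell, which the authors made by alignment to mm10 and UMI counting. The submitters' processing notes name Cell Ranger 5.0.1, whereas the matrix headers name version 6.0.1. Whether strand was used in counting is not given in the sources used here.

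Cells with at most 6000 genes and at most 25% mitochondrial UMIs were kept, as in the study's methods. Classes were gated on the raw counts. The T and neutrophil gates given above took cells in neither the B nor the plasma gate. Of such cells with no Cd3e or Csf3r UMI, NK cells had at least 1 Ncr1 and no Csf1r or Siglech UMI, and plasmacytoid dendritic cells at least 2 Siglech and no Ncr1 UMI. Monocytes or macrophages had at least 2 Csf1r, fewer than 2 Siglech and no Ncr1 or Flt3 UMI, and conventional dendritic cells at least 1 Flt3 and no Siglech or Ncr1 UMI. Doublets were called with scrublet in scanpy 1.11.5 at an assumed rate of 6% and were kept, with an alternative without them. Counts were summed per class. Shares carry exact Clopper-Pearson and sums exact Poisson intervals at 95% (scipy 1.17.1), for counting error only. Ratios were called at 2-fold with at least 10 counts in each library. Shares with a UMI were thinned to 2000 UMIs by an exact formula, and shallower cells were left out, which kept 489 and 537 B cells, 4344 and 3173 T cells, 566 and 1755 neutrophils and 258 and 261 plasmacytoid dendritic cells. Fold calls, thinning and isotype calls were tested on simulated data. That test found that the floor of 10 in each library drops genes that truly fell, so a summed floor of 20 was added after the data were seen.

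The members and gene lists were chosen with earlier results of these data known. Genes named in the text were the members, the genes of fixed lists past 2-fold or defining their list, and the genes most alike by correlation. Sequences and coordinates were read from the mm10 genome and GENCODE.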

Additional observations from a re-analysis of the deposited data

Results flagged for a closer look

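Cells with at least 10% of their UMIs in constant genes were also found in none of the cell classes, and so entered no comparison between classes. There were 20 such cells under lenvatinib and 9 under combo. They held 20836 and 8782 constant-gene UMIs, or 3.28% and 0.754% of those of their library, at medians of 3016 and 2789 UMIs per cell. Igha was called in 17 of 20 and 5 of 9. Jchain had a UMI in 20 and 8 of them, and Mzb1 in 7 and 4, and the plasma gate asks for at least 5 Jchain and at least 2 Mzb1 UMIs. A further 5 lenvatinib cells and 1 combo cell of this kind stood in the T or NK class and were counted there.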

How the results depend on the processing

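No paired analysis was possible because each treatment had 1 library and the results come from no test, and no library could be left out. Of the main results, 175 values under an alternative stayed within the counting interval (or 1.5 times a count) and 35 moved. Where 2 values follow, lenvatinib comes first. The B share was 2.46% and 3.43% with a stricter gate and 2.99% and 4.01% without cells holding Cd3e or Csf3r. The plasma share was 0.669% and 0.594% with a looser gate, 0.662% and 0.706% with cells of at least 10% constant UMIs in its place, and 0.672% under combo with cells of both gates kept in both. The combo IgA share was 53.9% with those cells kept and 54.9% with the 10% rule. The combo switched B share was 5.43% with those cells kept and 0.643% with stricter calls. Stricter calls gave a lambda share of B cells of 13.5% and 11.7%. A stricter plasma gate gave a lenvatinib lambda share of 0%.

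Igkc per T cell was 2.78 under lenvatinib with a stricter cell filter, 3.11 and 3.60 with gates at 1 UMI, 2.48 and 2.68 without cells holding Cd79a, Ms4a1 or Mzb1, and 2.11 and 2.73 without cells over 1% constant UMIs. Igkc per neutrophil was 1.57 and 2.95 with gates at 1 UMI, and 2.65 under combo without cells holding those B-lineage genes. The Iglc1 share in T cells was 1.68% and 7.83% without cells over 1%, and 7.94% under combo without cells holding those genes. Higher members in B cells were 2 with a stricter cell filter and 4 with cells of both gates kept, and lower members 0 without called doublets. Lower members in plasma cells were 1 with CPM outside immunoglobulin genes and 1 with cells of both gates kept, and in T cells 2 without called doublets. With cells of both gates kept, Ighg1 in B cells turned to 1.29 times and Ighg2b in plasma cells to 1.39 times. The 10% rule, the 1% rule, the summed floor and keeping both-gate cells for member counts were chosen after seeing the data. Beyond the change in which cells enter, the causes were not tested.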
